A study of Mus musculus with 12 samples.

Results

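Type 1 conventional dendritic cells (cDC1) of mouse inguinal lymph nodes were compared between libraries whose titles begin with 091418 and libraries of the same treatment groups whose titles begin with 091318. The members are 6 of the 12 RNA-seq libraries of the series, 3 per prefix, paired by group: NoTumor-CD40 (no tumor, CD40 agonist given), Tumor-NoCD40 (subcutaneous KPC tumor, no agonist) and Tumor-CD40 (tumor and agonist). KPC names tumor cells of a mouse model of pancreatic cancer, and CD40 is a dendritic cell receptor for the activating ligand of helper T cells. The prefixes read as dates, but the labels do not say what happened on them, and there is 1 library per group and prefix. Strain, age, sex, agonist dose, timing and sort gates are not given in the sources used here, nor is whether a library holds 1 mouse or several. The remaining libraries are 3 with the prefix 091218 in these groups and 3 of untreated mice without tumor (NoTumor-NoCD40, prefixes 091318, 091218 and 092518).

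Lymph nodes hold resident and migratory cDC1. Resident cDC1 enter from the blood, carry CD8α, the chemokine receptor XCR1 and the dead-cell receptor CLEC9A, and take up material inside the node. Migratory cDC1 come from the skin, switch on the lymph node homing receptor CCR7 and the actin bundler fascin, and arrive through lymph with lower uptake and antigen-sensing gene expression. Resident cells that mature in place switch on many of the same genes, so these transcripts report maturity as well as origin. In bulk RNA, fewer cells of a type and less RNA per cell cannot be told apart.

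The promoters of 1 gene from each side are shown as examples of promoter sequence. They are 250 bases before to 50 after a RefSeq start site on GRCm38.p6. Cd8a lies at chr6:71373177-71373476 on the plus strand and encodes the CD8α chain of resident cDC1. Fscn1 lies at chr5:142960105-142960404 on the plus strand and encodes fascin. Capitals mark the ETS-IRF composite motif GGAANNGAAA on either strand.
Cd8a: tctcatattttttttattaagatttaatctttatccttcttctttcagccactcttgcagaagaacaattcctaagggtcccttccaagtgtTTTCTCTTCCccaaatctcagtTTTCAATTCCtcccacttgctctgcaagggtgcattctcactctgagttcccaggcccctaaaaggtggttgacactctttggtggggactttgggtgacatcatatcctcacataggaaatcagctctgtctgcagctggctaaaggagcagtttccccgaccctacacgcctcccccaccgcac
Fscn1: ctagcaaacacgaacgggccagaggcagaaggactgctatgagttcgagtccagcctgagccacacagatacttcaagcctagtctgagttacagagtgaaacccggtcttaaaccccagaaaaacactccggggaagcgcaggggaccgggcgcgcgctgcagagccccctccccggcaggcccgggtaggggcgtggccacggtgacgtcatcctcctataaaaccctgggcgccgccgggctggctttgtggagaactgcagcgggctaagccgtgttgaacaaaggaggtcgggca
The Cd8a window held 2 matches, starting 158 and 136 bases before the start site, and the Fscn1 window held none. The Cd8a window is not typical of its list: of the other resident windows only that of Gpr33 held the composite. Those of Xcr1, Clec9a, Tlr3 and Snx22 held none. RefSeq windows were matched for 22 of 32 listed migratory genes (27 windows) and 23 of 30 listed resident genes (26 windows). The composite was found in 2 of the migratory windows and 2 of the resident windows (7.41% and 7.69%), against 2.72% of all 32851 windows. The NF-kB motif GGGNNNTTCC was in 1 window of each list (3.70% and 3.85%), against 5.56% of all windows.

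Library totals ran from 22855143 to 27163393 expected counts, and the correlation of log2(CPM + 1) between any 2 libraries ran from 0.939 to 0.985. CPM are counts scaled to a common library total. Over the 12 libraries, Flt3, the growth factor receptor of dendritic cells, ran from 433 to 681 CPM, and Batf3 and Zbtb46, transcription factors of cDC1 and of conventional dendritic cells, from 85.1 to 160 CPM and from 100 to 189 CPM. Zbtb46 had 175, 127 and 100 CPM in the 091418 libraries and 172, 173 and 136 CPM in the 091318 libraries. In every such list of 3 values the order is NoTumor-CD40, Tumor-NoCD40, Tumor-CD40.

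The balance between the 2 programs was read as a single value per library: the mean log2(CPM + 1) of 10 migratory markers (Ccr7, Fscn1, Ccl22, Cacnb3, Anxa3, Socs2, Il4i1, Cd63, Tmem123, Nudt17) minus that of 10 resident markers (Xcr1, Clec9a, Cd8a, Tlr3, Tlr11, Cd36, Naaa, Cadm1, Clnk, Plbd1). The value was 5.10, 4.47 and 2.33 in the 091418 libraries, against 1.35, -0.26 and 2.04 in the 091318 libraries. The paired differences were 3.75 in NoTumor-CD40, 4.73 in Tumor-NoCD40 and 0.29 in Tumor-CD40, a mean of 2.92 ± 2.33 (SD, n = 3 pairs). The 091418 libraries of NoTumor-CD40 and Tumor-NoCD40 had the highest balance of the 12, and their 091318 partners were among the 4 lowest. The Tumor-CD40 partners lay beside each other in the middle. With 3 pairs an exact two-sided sign test cannot go below p = 0.25, so the values are given without a test, and whether the Tumor-CD40 pair differs from the others was not tested.

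**Figure D1:**
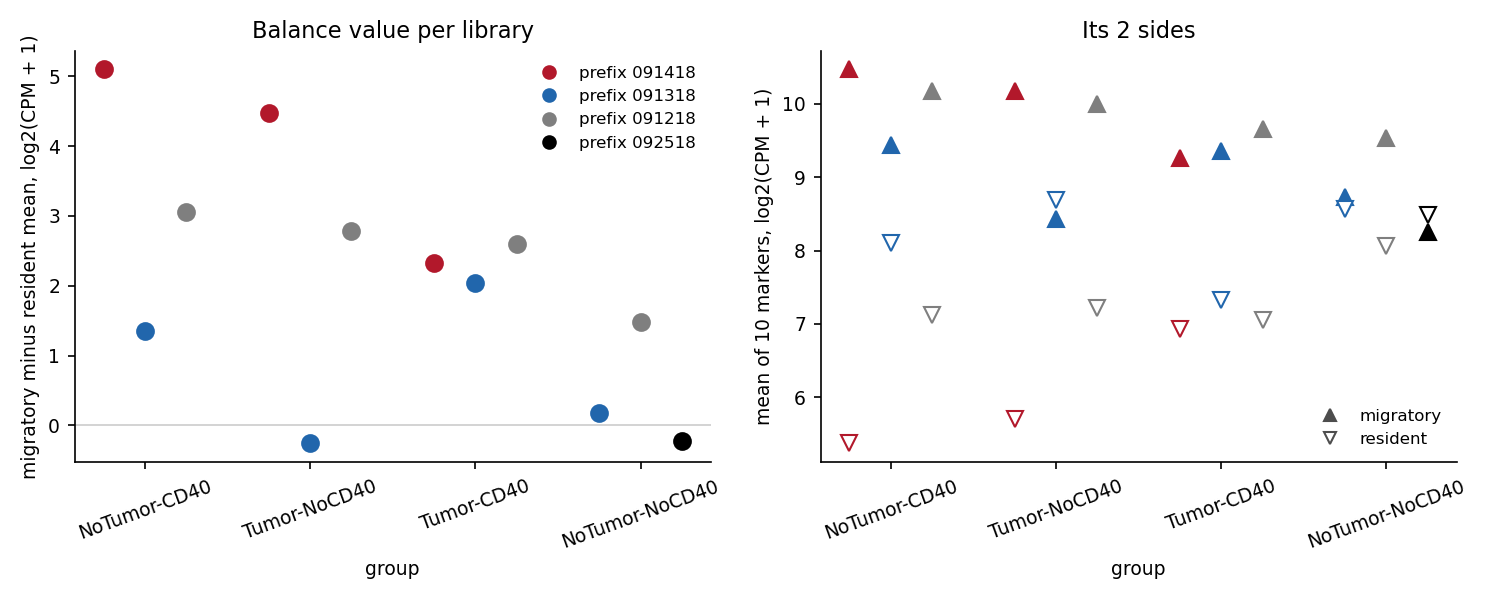
Left: balance value of each of the 12 libraries (migratory minus resident marker mean, log2(CPM + 1)) by group, colored by title prefix, 1 point per library. Right: the means of the 10 migratory markers (filled, pointing up) and the 10 resident markers (open, pointing down). The 091418 points of NoTumor-CD40 and Tumor-NoCD40 (5.10 and 4.47) stand above all others on the left, through a lower resident mean more than a higher migratory mean on the right.

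On the log2 scale, the resident side carried most of the shift. Its marker mean was lower in the 091418 libraries by 2.73, 2.98 and 0.39 log2 units (paired differences -2.73, -2.98 and -0.39, mean -2.03 ± 1.43 SD). The migratory side differed by 1.03, 1.75 and -0.10 (mean 0.89 ± 0.93 SD). In summed CPM, the 10 resident markers held 704, 944 and 2061 in the 091418 libraries, against 5273, 7751 and 3017 in the 091318 libraries. The 10 migratory markers summed to 29306, 22765 and 11742 CPM in the 091418 libraries, against 13150, 6448 and 12003 CPM in the 091318 libraries. In CPM the migratory sum thus differed by more in NoTumor-CD40 and Tumor-NoCD40, and the resident sum in Tumor-CD40. Resident transcripts were the scarcer set in all 091418 libraries, while in the 091318 Tumor-NoCD40 library they exceeded the migratory ones.

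The 091218 libraries lay between the others in 2 groups. Their balance was 3.06, 2.78 and 2.60, a difference from the 091318 libraries of 1.71, 3.04 and 0.56 and from the 091418 libraries of 2.04, 1.68 and -0.27 (091418 minus 091218). The untreated NoTumor-NoCD40 libraries had 0.17 with prefix 091318, 1.48 with 091218 and -0.23 with 092518. Across prefixes the balance spanned 3.75 units in NoTumor-CD40 and 4.73 in Tumor-NoCD40, but 0.56 in Tumor-CD40 and 1.71 in NoTumor-NoCD40. The order of the groups changed with the prefix. Tumor-CD40 minus Tumor-NoCD40 was -2.13 among 091418 libraries, 2.30 among 091318 libraries and -0.18 among 091218 libraries. NoTumor-CD40 minus NoTumor-NoCD40, which no 091418 library covers, was 1.18 with 091318 and 1.58 with 091218.

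Genes were tested with edgeR's quasi-likelihood test over the 9 libraries with these 3 prefixes in the 3 groups, with terms for prefix and group, and p-values adjusted by Benjamini-Hochberg over 19065 genes. The labels do not say that libraries are separate animals. With 1 library per group and prefix, p-values set the prefix difference against its disagreement between groups, not against a spread between animals. Between 091418 and 091318, 385 genes (2.02%) passed an adjusted p of 0.05, of which 114 (0.598%) were higher and 271 (1.42%) lower in 091418. These calls depend on which pairs enter. With the 6 libraries alone none passed (2338 at an unadjusted p under 0.05), and none passed without the NoTumor-CD40 or without the Tumor-NoCD40 libraries. Without the Tumor-CD40 libraries, the pair with the smallest balance difference, 1919 passed, 898 higher (5.12%) and 1021 lower (5.82%), and 357 of the 385 were among them. Gm42418, which carries ribosomal RNA-like sequence, was lower in all 3 pairs, with 218, 116 and 158 CPM in the 091418 libraries and 475, 263 and 644 CPM in the 091318 libraries. With the ribosomal RNA-like and mitochondrial genes left out (41 genes), 391 genes passed. The smallest adjusted p in the full fit was 0.0301, and 3414 genes had an unadjusted p under 0.05.

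Of 29 resident cDC1 genes tested, 19 fell and none rose, beside 1.42% lower over all genes, and the median log2 fold change was -1.92 against 0.04 for all genes. In 23 of the 29 the 091418 library was lower in all 3 pairs, beside 17.6% of all genes. Xcr1 (chromosome 9, 123852315 to 123862029, GRCm38), the receptor for the chemokine XCL1 of CD8 T cells and NK cells, had 49.4, 73.1 and 198 CPM in the 091418 libraries, against 533, 685 and 302 CPM in the 091318 libraries. The groups do not overlap, and the Tumor-CD40 libraries lie nearest each other. Its log2 fold change was -2.34 ± 0.46 (SE), with an edgeR adjusted p of 0.0399. Clec9a (chromosome 6, 129408862 to 129424763), which binds exposed actin of dead cells, had 52.1, 33.1 and 113 CPM against 214, 357 and 166 CPM in the 091318 libraries, a log2 fold change of -1.94 ± 0.42 (adjusted p = 0.0482 by edgeR).

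Endosomal sensors were among the resident genes that fell. Tlr3, the receptor for double-stranded RNA, had 10.9, 17.7 and 58.3 CPM in the 091418 libraries, against 133, 261 and 81.7 CPM in the 091318 libraries. Tlr11, a mouse receptor for profilin of Toxoplasma, had 31.9, 35.0 and 80.1 CPM against 201, 272 and 171 CPM in the 091318 libraries. Neither gene overlapped between prefixes, and both were lower in the Tumor-CD40 pair as well, Tlr11 by more (paired difference -1.08 against -0.48). Log2 fold changes were -2.48 ± 0.55 for Tlr3, -2.15 ± 0.32 for Tlr11 and -1.14 ± 0.24 for its partner Tlr12, with edgeR adjusted p-values of 0.0495, 0.0301 and 0.0428. Over the list of Toll-like receptors and adaptors, 5 of 19 fell and none rose, beside 1.42% and 0.598% of all genes. The list median was -0.70. Tlr3, Tlr11 and Tlr12 are also counted in the resident list. The further members were Tlr13, a receptor for bacterial ribosomal RNA (-1.29 ± 0.27), and Unc93b1 (-1.19 ± 0.24), which carries these receptors from the endoplasmic reticulum to endosomes. Tlr9, the DNA receptor, had 114, 73.0 and 118 CPM against 136, 130 and 142 CPM in the 091318 libraries and did not pass (adjusted p = 0.198 by edgeR).

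Snx22, a sorting nexin, had the largest change of the resident list that passed, with 18.1, 19.9 and 55.4 CPM in the 091418 libraries and 160, 237 and 155 CPM in the 091318 libraries (-2.64 ± 0.34, edgeR adjusted p = 0.0301). Rab7b, a small GTPase of late endosomes, changed by -2.47 ± 0.44, and the lysosomal enzymes Plbd1 and Ppt1 by -2.35 ± 0.40 and -2.24 ± 0.42. Wdfy4, which cDC1 need to cross-present cell-associated antigen in mice, had 318, 383 and 1210 CPM against 2410, 3340 and 1760 CPM in the 091318 libraries (-2.13 ± 0.42, adjusted p = 0.0399 by edgeR). Cadm1, an adhesion molecule of the cDC1 lineage, changed by -1.52 ± 0.31, and the inhibitory receptor Btla by -1.49 ± 0.29. The remaining members that fell were Cd8a and Gcsam, Ifi205, Sept3, Gpr141, Pld4 and Ppm1m, with log2 fold changes between -2.36 and -1.22 for these last 6.

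A resident gene could also differ strongly in 2 pairs and miss the test. Naaa, a lysosomal amidase, had 138, 219 and 493 CPM in the 091418 libraries and 1460, 2480 and 571 CPM in the 091318 libraries, paired differences of -3.40, -3.49 and -0.21 (adjusted p = 0.0535 by edgeR). Cd36, a scavenger receptor, had 25.8, 32.5 and 101 CPM against 183, 257 and 99.1 CPM in the 091318 libraries and overlaps through the Tumor-CD40 pair (adjusted p = 0.0842 by edgeR). Clnk and Itgae, which encodes CD103, had paired differences above 0 in Tumor-CD40 (0.50 and 0.19) and far below 0 in the others (-2.33 and -2.84 for Clnk, -2.19 and -2.32 for Itgae). Itgae is counted here in the resident list, but whether its transcripts came from resident or migratory cells was not tested. Gpr33, Fnbp1, Dnase1l3, Tlr9, Cd24a and Mcoln2 did not pass either, and Mcoln2 was near 1 CPM in most libraries. Of the 30 listed genes, Cxx1a was not tested.

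**Figure D2:**
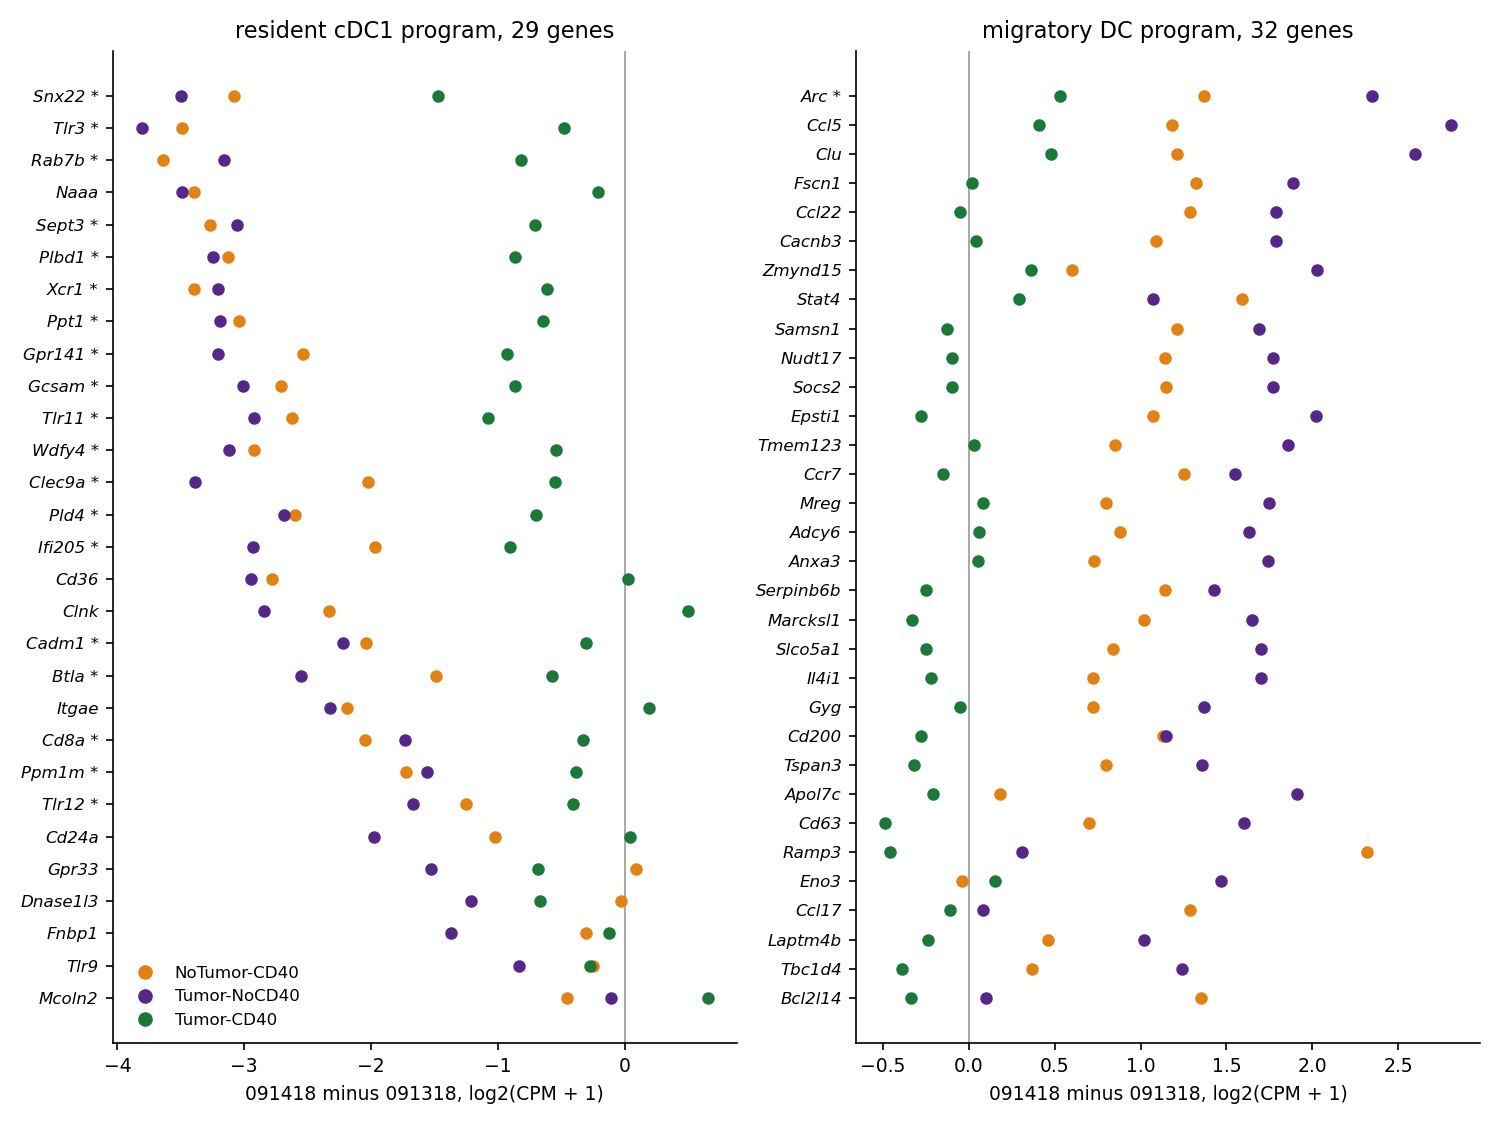
Paired difference, 091418 minus 091318 in log2(CPM + 1), for each tested gene of the resident list (left, 29 genes) and the migratory list (right, 32 genes), 1 point per group pair, genes ordered by fitted log2 fold change; a star marks an edgeR adjusted p under 0.05. For most genes the Tumor-CD40 point lies closest to 0, as for Xcr1 (-3.40, -3.21 and -0.61) and Fscn1 (1.32, 1.89 and 0.02).

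Of the 32 migratory genes, all had a log2 fold change above 0 in the fit, with a median of 0.86, but 1 passed the test, beside 0.598% higher over all genes. Higher in all 3 pairs were 11 of 32, beside 14.5% of all genes. The gene that rose was Arc, whose protein forms capsid-like shells and aids dendritic cell migration in mice. Arc (chromosome 15, 74669083 to 74672570) had 464, 498 and 195 CPM in the 091418 libraries, against 179, 97.2 and 135 CPM in the 091318 libraries. The 091418 values lie above all 091318 values, with a log2 fold change of 1.44 ± 0.28 (SE) and an edgeR adjusted p of 0.0377. Without the Tumor-CD40 libraries, 25 of 32 migratory genes passed as higher and 24 of 29 resident genes as lower, beside 5.12% and 5.82% of all genes in that fit. That pair has the smallest balance difference, and the balance markers belong to these lists. The counts of that fit therefore follow in part from which pair was left out. Without either other group, or with the 6 libraries alone, no gene of the 2 programs passed.

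The leading migratory genes were higher in 2 pairs and hardly differed in Tumor-CD40. Ccr7 had 3250, 1680 and 1480 CPM in the 091418 libraries and 1370, 573 and 1640 CPM in the 091318 libraries, so that the Tumor-CD40 partners stood in the opposite order (paired differences 1.25, 1.55 and -0.15, edgeR adjusted p = 0.139). Fscn1 had 12400, 8680 and 4370 CPM against 4960, 2340 and 4300 CPM in the 091318 libraries (adjusted p = 0.0762 by edgeR). Ccl22, a chemokine that draws regulatory T cells through CCR4, had 4290, 2720 and 1380 CPM against 1750, 786 and 1430 CPM in the 091318 libraries (adjusted p = 0.0815 by edgeR). The calcium channel subunit gene Cacnb3 had paired differences of 1.09, 1.79 and 0.04. Ccl5, a T cell attracting chemokine, had 1.18, 2.81 and 0.41 (log2 fold change 1.44 ± 0.35, edgeR adjusted p = 0.0671), and the chaperone gene Clu had 1.21, 2.60 and 0.48 (1.42 ± 0.33, 0.0585). Other members differed in a single pair: Ramp3, a partner of peptide hormone receptors, by 2.32 in NoTumor-CD40 but 0.31 in Tumor-NoCD40, and Bcl2l14 by 1.35 but 0.10. Eno3, the muscle enolase, went the other way round, with -0.04 in NoTumor-CD40 and 1.47 in Tumor-NoCD40.

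Among 16 transcription factors of cDC1 and other dendritic cells, 1 rose and none fell, beside 0.598% and 1.42% of all genes. The median log2 fold change was -0.17. Irf4, a factor of dendritic cell maturation and migration, had 103, 88.3 and 93.9 CPM in the 091418 libraries, against 36.9, 22.3 and 51.3 CPM in the 091318 libraries. The groups do not overlap, and Irf4 was higher in the Tumor-CD40 pair too, by 0.86 log2 units (log2 fold change 1.44 ± 0.22, edgeR adjusted p = 0.0301). Batf3, which cDC1 need to develop, had 160, 87.7 and 85.1 CPM against 121, 101 and 133 CPM in the 091318 libraries, and Id2, another factor of the lineage, had 794, 502 and 486 CPM against 603, 621 and 669 CPM in the 091318 libraries. Neither passed (adjusted p = 0.822 and 0.816 by edgeR).

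Of 19 genes of antigen presentation on MHC class II, 5 fell and none rose, beside 1.42% and 0.598% of all genes. The list median was -1.14, and 4 of the 19 had a log2 fold change above 0. H2-Ab1, a class II chain, had 1040, 1270 and 3460 CPM in the 091418 libraries, against 6440, 8710 and 5150 CPM in the 091318 libraries (-1.92 ± 0.37, edgeR adjusted p = 0.0377). H2-Eb1 changed by -1.53 ± 0.25, the invariant chain gene Cd74 by -1.45 ± 0.27, H2-Aa by -1.42 ± 0.23 and the protease inhibitor Cst3 by -0.95 ± 0.19. Ciita, the master activator of class II genes, had 51.9, 79.2 and 280 CPM against 436, 677 and 325 CPM in the 091318 libraries, but did not pass (adjusted p = 0.0642 by edgeR). Of 16 MHC class I genes none passed, with a median of 0.20.

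Receptors changed in both directions. Beside each list count in this paragraph stand 0.598% of all genes that rose and 1.42% that fell. Of 22 chemokine and growth factor receptors 2 rose and 3 fell: besides Xcr1 these were Ifngr1, a chain of the interferon gamma receptor (62.7, 57.6 and 151 CPM against 224, 410 and 221 CPM in the 091318 libraries), and Csf2ra, a chain of the GM-CSF receptor (log2 fold changes -1.68 ± 0.34 and -0.70 ± 0.15). Those that rose were Cxcr5 (1.58 ± 0.33), the follicle homing receptor that B cells also carry, and S1pr1 (1.56 ± 0.30), the receptor for exit from lymphoid tissue that T cells also carry. Of 24 chemokines and cytokines 1 fell: Cxcl9, which draws CXCR3-bearing T cells, had 110, 60.7 and 338 CPM against 487, 452 and 527 CPM in the 091318 libraries (-1.81 ± 0.37, edgeR adjusted p = 0.0414). Of 23 uptake receptors 4 fell, Clec9a, Cd207 (-2.61 ± 0.54), Clec12a (-1.47 ± 0.20) and Havcr2 (-2.22 ± 0.39). Of 19 genes that restrain T cells 2 fell, Havcr2 and Btla. Of 25 migration cytoskeleton genes 1 fell, the actin-severing Gsn (-1.22 ± 0.21). Cd207 encodes langerin, which some cDC1 and Langerhans cells carry, and Havcr2 encodes TIM-3. Cd207 had 4.40, 15.5 and 3.84 CPM against 77.3, 82.8 and 3.13 CPM in the 091318 libraries, a gap in 2 pairs only.

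Several lists had no member past the test, or only 1 or 2, beside 0.598% of all genes that rose and 1.42% that fell. None of 14 T cell costimulation genes passed (median 0.61), none of 27 NF-kB and CD40 signaling genes (median 0.48, 25 above 0), and none of 30 type I interferon response genes (median 0.16). Of 20 interferon gamma response genes the GTPase gene Gbp6 rose (1.22 ± 0.26) and Cxcl9 fell. NF-kB and CD40 signaling genes had median paired differences of 0.70, 0.81 and -0.13, and costimulation genes 0.82, 0.96 and -0.10. Without the Tumor-CD40 libraries 18 NF-kB genes passed as higher and 1 as lower, and among 13 costimulation genes tested 7 were higher and 1 lower, beside 5.12% higher and 5.82% lower over all genes in that fit. Without either other group, or with the 6 libraries alone, no gene of these 2 lists passed. Of 17 unfolded protein response genes 2 fell: Herpud1, of protein degradation at the endoplasmic reticulum (-0.86 ± 0.18), and the chaperone partner Sdf2l1 (-1.14 ± 0.24). None passed among 18 glycolysis, 20 oxidative phosphorylation, 24 cholesterol and 10 retinoic acid and vitamin D genes.

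**Figure D3:**
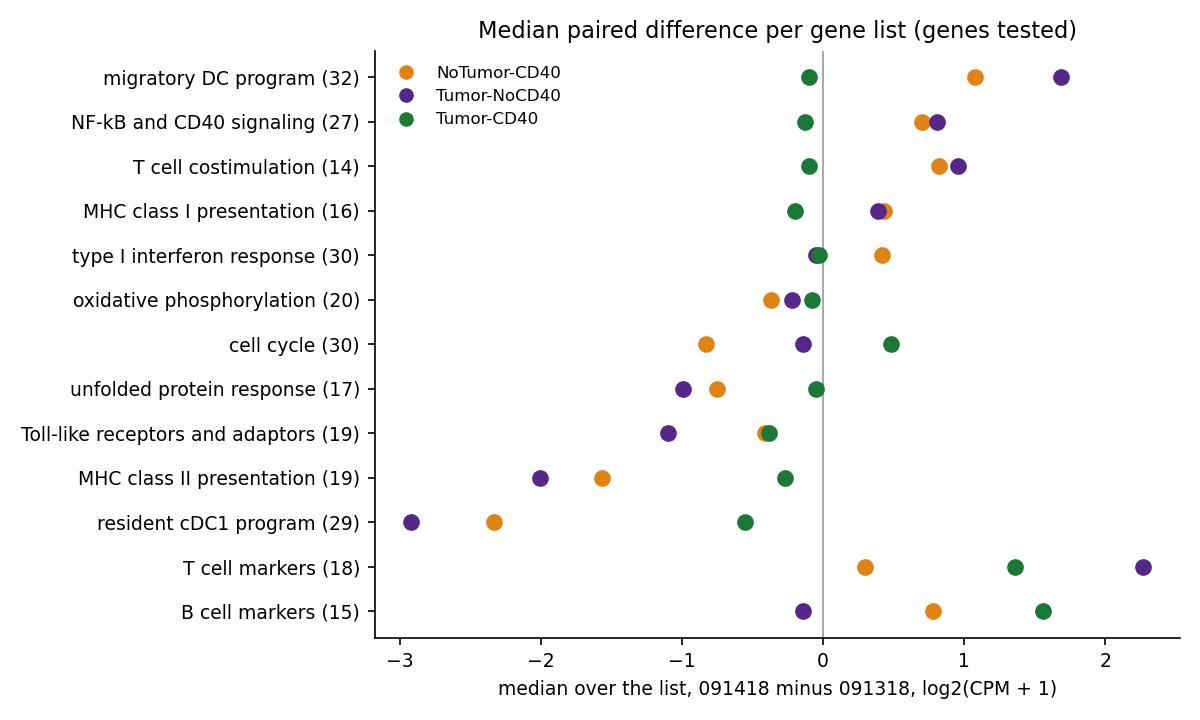
Median paired difference over the tested genes of 13 lists, 091418 minus 091318 in log2(CPM + 1), 1 point per group pair; numbers of genes are in brackets. For the migratory, NF-kB, costimulation, MHC class II and resident lists the Tumor-CD40 point is nearest to 0, while the T cell list has 0.30, 2.27 and 1.36 and the B cell list 0.78, -0.14 and 1.56.

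Markers of T cells moved with the prefix, in the Tumor-CD40 pair too. Of 18 markers 7 rose and none fell, beside 0.598% and 1.42% of all genes. The median log2 fold change was 1.43, and 13 were higher in all 3 pairs, beside 14.5% of all genes. Those that rose were Cd3d, Cd3g, Cd247, Trac, Trbc2, Cd8b1 and Bcl11b. These calls depend on the fit. With all 12 libraries 2 of the 18 passed as higher, beside 285 of 23210 genes, and with DESeq2 16, beside 628 of 19065. None passed with the 6 libraries alone, from TPM, without the group term, or without the NoTumor-CD40 or Tumor-NoCD40 libraries. Without the Tumor-CD40 libraries 6 passed, beside 5.12% of all genes. The sum over the 18 was 629.1, 1513 and 844.5 CPM in the 091418 libraries, against 421.2, 301.3 and 419.0 CPM in the 091318 libraries, and 509.9, 855.3 and 821.8 CPM in the 091218 libraries. Trbc2, a T cell receptor constant region, had 54.9, 204 and 110 CPM against 36.8, 23.5 and 29.4 CPM in the 091318 libraries (1.87 ± 0.38, edgeR adjusted p = 0.0416). None of the 18 was at 0 in all libraries. Cd8a, which cytotoxic T cells and resident cDC1 share, had 150, 214 and 294 CPM against 626, 714 and 371 CPM in the 091318 libraries (-1.36 ± 0.29, adjusted p = 0.0448 by edgeR), while Cd8b1, whose CD8β chain marks T cells, had 33.5, 74.1 and 42.2 CPM against 20.7, 15.4 and 13.2 CPM in the 091318 libraries (1.56 ± 0.28, 0.0330). The part of these T cell transcripts in the other results was not tested.

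B cell markers were highest in the Tumor-CD40 libraries of every prefix. They summed to 359.4, 217.9 and 3275 CPM in the 091418 libraries and to 364.5, 403.8 and 1209 CPM in the 091318 libraries, with 524.7, 449.4 and 1377 CPM in the 091218 libraries, and none of 15 passed. Immunoglobulin genes made up 7 of the 114 genes that rose, and 4 of the 10 with the largest increase were Igkv8-30, Igkv4-53, Ighv1-52 and Igkv12-46, whose reads are shared between close copies. Igkv8-30 had 1.07, 37.1 and 42.4 CPM against 0.432, 0.150 and 0.619 CPM in the 091318 libraries. Chil3, a monocyte and macrophage gene, passed through 23.5 CPM in the 091418 Tumor-CD40 library and was at or below 1.73 CPM in the other 11. The hemoglobin genes Hba-a1 and Hbb-bt also passed, with 7.19 and 12.9 CPM and with 3.27 and 11.4 CPM in the 091418 Tumor-NoCD40 and Tumor-CD40 libraries. Neither was above 0.698 CPM in any other library. Over all genes, 0.598% passed as higher and 1.42% as lower. Plasma cell, NK cell, macrophage, Langerhans cell and cDC2 lists had at most 1 call per direction: Ighg2b rose, Nkg7 rose and Klrk1 fell, Cd68 fell, Il1r2 rose and Cd207 fell, and Irf4 rose and Clec12a fell. None of the tested neutrophil (6), plasmacytoid dendritic cell (12), stromal (7) or endothelial (8) markers passed. Their part in the other results was not tested.

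**Figure D4:**
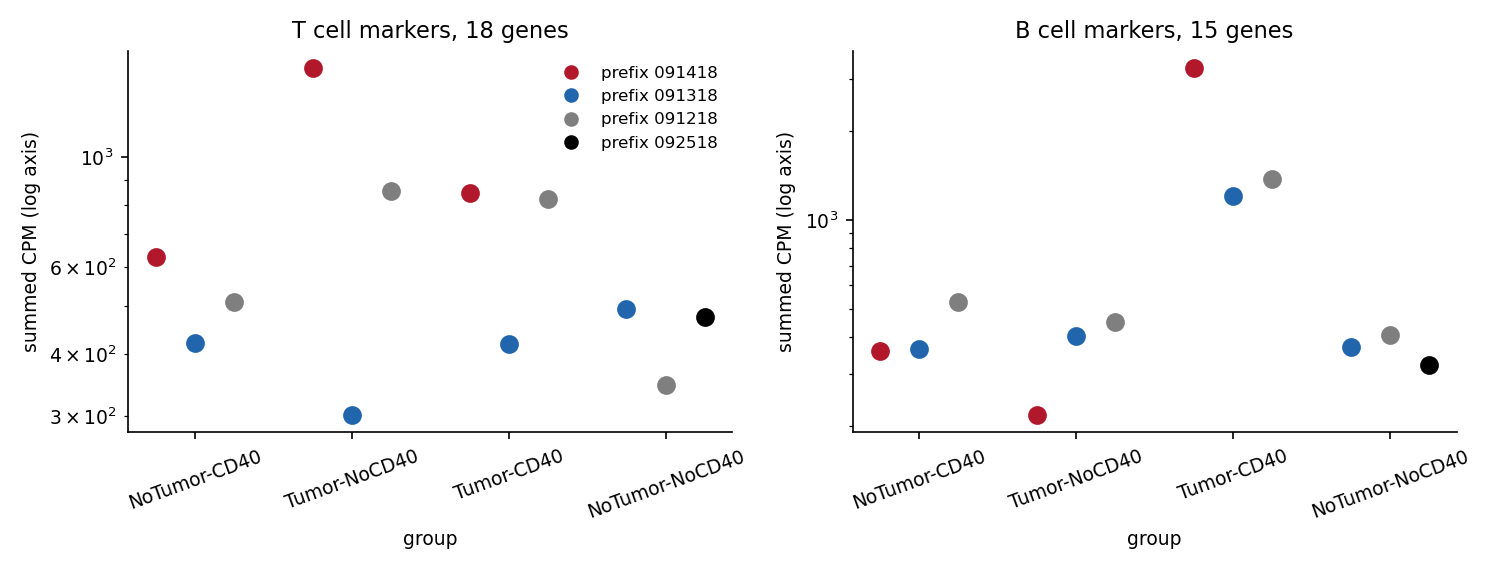
Summed CPM of 18 T cell markers (left) and 15 B cell markers (right) in each of the 12 libraries, on log axes, by group and colored by title prefix. The 091418 T cell sums (629.1, 1513 and 844.5) lie above those of their 091318 partners, and the largest B cell sum is the 091418 Tumor-CD40 library (3275).

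The 114 genes that rose had median paired differences of 1.02, 1.93 and 1.16. A call in this fit favors genes that differ alike in all 3 pairs, so the medians per pair of called genes are not independent of the selection. Their list includes 1 of the migratory genes and none of the resident ones. The 271 genes that fell had medians of -1.78, -2.02 and -0.66, and 19 are resident genes. Apart from the immunoglobulin genes and Chil3, the largest increases were Zc3h11a, the TNF family ligands Tnfsf8 and Tnfsf11, the matrix gene Tnc and the interferon-induced GTPase gene Gbp10. Tnfsf8, which encodes the CD30 ligand, had 6.93, 22.4 and 12.2 CPM against 2.39, 1.84 and 2.23 CPM in the 091318 libraries (2.66 ± 0.44, edgeR adjusted p = 0.0310). T cell marker sums stood in the same order in the 091418 libraries (629.1, 1513 and 844.5 CPM). Which cells the Tnfsf8 and Tnfsf11 transcripts come from was not tested. Zc3h11a was listed at 0 in 8 of the 12 libraries, so its estimate is uncertain.

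Among the largest decreases were Cyp8b1, an enzyme of bile acid synthesis in liver (0.357, 1.27 and 0.396 CPM against 7.41, 10.3 and 1.57 CPM in the 091318 libraries), Ppef2, a phosphatase, and the adenosine receptor gene Adora3. Hepacam2 had 1.82, 7.95 and 7.72 CPM against 58.1, 85.1 and 9.73 CPM in the 091318 libraries, a wide gap in 2 groups and a small one in Tumor-CD40. Adgra2, an adhesion receptor, had 4.04, 9.11 and 15.7 CPM against 55.9, 87.6 and 33.2 CPM in the 091318 libraries. Nlrp1a, an inflammasome sensor, was lower by similar amounts in all pairs (-1.85, -2.13 and -1.87). The further genes were 1700009J07Rik, Serpinb8, Olfr433 and Snx22, and log2 fold changes of the 10 ran from -3.20 to -2.49.

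Genes that follow the balance over the series were found by correlating log2(CPM + 1) with the balance value over the 12 libraries, both centred within group, for 10161 genes outside the 2 programs with a mean of at least 5 CPM. The points share libraries and scaling with the balance, so r is a description. It was at least 0.9 for 394 genes (3.88%) and -0.9 or less for 512 (5.04%). Among the highest values were Sh3bp4 (r = 0.992), Abcg1 (0.992), a cholesterol exporter, Cttnbp2nl (0.992), Daam1 (0.990), an actin-regulating formin, Trp53inp1 (0.987), Inpp5j (0.987) and the interferon regulatory factor Irf1 (0.986). The lowest belonged to Ptpa (-0.992), the Wnt receptor gene Fzd1 (-0.992), the protein kinase A subunit gene Prkar2a (-0.991), the kinase Lrrk2 (-0.989), Notch4 (-0.989), Atp6v0a2 (-0.988), a subunit of the proton pump that acidifies endosomes, Sdad1 (-0.987) and Arrb1 (-0.987), a beta-arrestin. Without the 2 libraries farthest from the median of the group-centred balance (-2.59 and 2.14, those of Tumor-NoCD40 with prefixes 091318 and 091418), r was 0.972 to 0.993 for these 7 genes and -0.993 to -0.977 for the 8 lowest. Spearman's rho over the 12 libraries was 0.930 to 0.986 and -0.993 to -0.958.

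Irf1, chosen like the others by its r, had 1510, 796 and 542 CPM in the 091418 libraries and 569, 265 and 602 CPM in the 091318 libraries. Abcg1 had 814, 665 and 379 CPM against 403, 264 and 402 CPM in the 091318 libraries, and Fzd1 had 8.95, 12.2 and 21 CPM against 50.5, 97.3 and 23.6 CPM in the 091318 libraries. Of these 15 genes only Atp6v0a2 passed, with 70.3, 83.2 and 118 CPM against 187, 267 and 151 CPM in the 091318 libraries (-1.13 ± 0.23, edgeR adjusted p = 0.0411). Among the called genes outside the programs with enough CPM, the 240 that fell had a median r of -0.93 and the 87 that rose a median of 0.78. The median over all genes compared was -0.08. The calls and the balance share libraries, so the signs of the medians of called genes follow in part from how these genes were chosen.

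Beside the list counts below stand 3.88% of all genes compared with r of at least 0.9 and 5.04% with r of -0.9 or less. By list, 14 of 27 NF-kB and CD40 signaling genes had r of at least 0.9 and none -0.9 or less (median r 0.91). They include Tnfaip3 (0.985), an inhibitor of the pathway, the subunit genes Nfkb2 (0.967), Rela (0.966) and Relb (0.949), and Nfkbia (0.946), while the subunit genes Rel (0.861) and Nfkb1 (-0.499) did not reach 0.9. Tnfaip3 had 732, 546 and 320 CPM in the 091418 libraries and 373, 215 and 336 CPM in the 091318 libraries. Of 12 costimulation genes 6 had r of at least 0.9, among them Icam1 (0.977), an adhesion ligand, and Il15 (0.941) with its presenting receptor Il15ra (0.965). Of 18 survival genes 5 did, led by Mcl1 (0.981). Among these, Cflar (0.950) and Birc3 (0.932) are also counted in the NF-kB list. In contrast, 10 of 19 MHC class II genes had r of -0.9 or less (median -0.92), with Ciita at -0.980 and March1, which removes class II from the surface, at -0.972. Of 16 unfolded protein response genes 8 did (median -0.90), including Xbp1 (-0.950), and of 12 Toll-like receptor genes 3 did, Unc93b1 (-0.987), Myd88 (-0.969) and Irf5 (-0.912). None of 27 type I interferon, 20 oxidative phosphorylation or 30 cell cycle genes reached 0.9 in either direction. Of the transcription factors, Irf4 reached 0.933 and Irf8, the cDC1 master factor, -0.908. Without the 2 Tumor-NoCD40 libraries with prefixes 091318 and 091418, some of these values fell short of 0.9 in size. The 8 unfolded protein response genes ran from -0.893 (Xbp1) to -0.789 (Hsp90b1). Irf4 had 0.862, Irf8 -0.872, Irf5 -0.812, the NF-kB list gene Traf3 0.839 and the class II gene H2-Aa -0.867. Tnfaip3 (0.967), Ciita (-0.980), Unc93b1 (-0.976) and Myd88 (-0.929) stayed beyond 0.9.

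**Figure D5:**
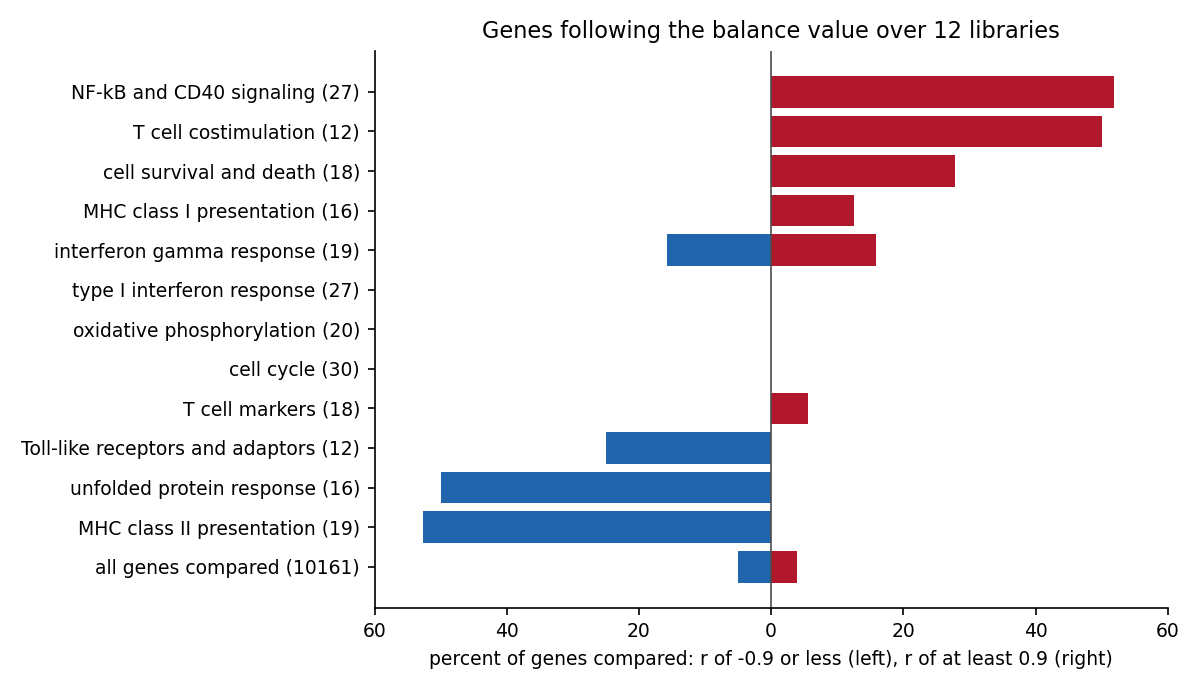
Percent of the compared genes of each list whose group-centred log2(CPM + 1) had a Pearson r of at least 0.9 (right) or of -0.9 or less (left) with the group-centred balance value over 12 libraries; numbers of genes are in brackets. NF-kB genes (14 of 27) lie to the right and MHC class II genes (10 of 19) to the left of all genes compared (3.88% and 5.04%).

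T cell markers had a median r of 0.61 with the balance over 18 genes. Trbc2 had 0.684 over 12 libraries and 0.197 without the 2 Tumor-NoCD40 libraries, and Cd3d had 0.710 and 0.228. Tcf7 had 0.963 and 0.989. A test of the difference between lists was not made.

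The other contrasts of the fit gave few calls. Between 091418 and 091218, 3 genes passed (0.0157%), all lower in 091418, and 1541 had an unadjusted p under 0.05. They were Gm42418 and the similar Gm26917, and Igkv1-135. Gm42418 had 218, 116 and 158 CPM in the 091418 libraries against 1240, 552 and 978 CPM in the 091218 libraries, and the mitochondrial share of counts was 2.67% to 4.36% in the 091418 libraries and 5.44% to 5.88% in the 091218 libraries. Between 091318 and 091218, 1 gene passed (0.00525%), Igkv1-135, and 2322 had an unadjusted p under 0.05. The 3 contrasts share libraries.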

How the data were processed

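Bulk RNA was sequenced from 12 cDC1 samples of inguinal lymph nodes. The authors deposited expected counts, estimated reads per transcript without normalization, and TPM, scaled for length and to a common total. Per the submitters' processing notes, Salmon and mm10 were used; the annotation release is not given in the sources used here. With GENCODE M21, 136176 of 136288 transcripts were summed to 53458 genes and expected counts were rounded. The remaining 112 transcripts were left out. Expected counts per library ranged from 22855143 to 27163393; counting error is small beside a biological coefficient of variation of 59.5%.

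In R 4.3.3, edgeR 4.0.16 was fitted (TMM, factors 0.956 to 1.061, filterByExpr with minimum count 10 and minimum total 15, glmQLFit with legacy = FALSE, 4 residual degrees of freedom, two-sided). The group term pairs libraries by treatment group. Each SE was derived from the F statistic (|log2 fold change| / √F). Alternatives were other normalization, filters, edgeR settings, limma 3.58.1, DESeq2 1.42.0, TPM, other library sets, the fit without the group term and, added after the data were seen, a fit without 41 mitochondrial and ribosomal RNA-like genes.

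Members, lists and markers were chosen with earlier results of these data known. Named genes are the 2 programs, up to 10 called genes per direction, ranked by size of change (at least 5 CPM in the higher set, same sign in all pairs), up to 4 called members per list (otherwise up to 2 by lowest p) and the 8 highest and 8 lowest r; genes named beyond this rule, including further list members, were chosen after their values were seen. 1 of these is not reported here. No set test was run.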

Additional observations from a re-analysis of the deposited data

How the results depend on the processing

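The mean paired balance difference of 2.92 was 2.97 and 2.79 with pseudocounts of 0.1 and 5, 2.87 from TPM, 2.53 over the whole lists and 3.00 without Cd8a, and ran from 2.02 to 4.24 with 1 pair left out. The count of 385 genes between 091418 and 091318 was less stable. It was 291 to 464 with other normalization, no filter, legacy = TRUE, limma-voom or without the mitochondrial and ribosomal RNA-like genes, 1389 with DESeq2, 756 with all 12 libraries, 83 with no replicate block (no group term, so libraries unpaired), 0 with the 6 libraries alone and 0 in all 3 TPM fits by limma-trend (1956 to 2495 genes at an unadjusted p under 0.05). Leaving out 1 group's libraries gave 0 to 1919; where it gave 0, 1871 and 1317 genes had an unadjusted p under 0.05. Between 091418 and 091218 the 3 genes became 9 without a filter, 215 with DESeq2, 10 with limma-voom, 13 with 12 libraries, 5 with 6 libraries, 1, 1 and 0 from TPM, 0 with no replicate block, 0 without the mitochondrial and ribosomal RNA-like genes, and 0 to 107 with a group left out. Between 091318 and 091218 the 1 gene became 464 with DESeq2, 35 with 12 libraries, 0 with legacy = TRUE, from TPM or with no replicate block, and 0 to 391 with a group left out. The cause of these differences was not tested. Signs turned round for uncalled genes only: Mcoln2 (0.14) was -0.44 from unfiltered TPM, and S100a8 (1.75) was -0.07 with DESeq2. With a group left out, Bcl2l14 ran from -0.14 to 0.80, Ramp3 from -0.15 to 1.51, Mcoln2 from -0.52 to 0.56, S100a8 from -0.87 to 2.13, S100a9 from -0.31 to 2.41 and Col3a1 from -3.35 to 0.38. Depth does not limit abundant markers, but with 1 library per group and prefix no pair has its own error.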

Other observations

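Dividing-cell and early-response genes stood in opposite order between the pairs. For 30 cell cycle genes the median paired difference (091418 minus 091318, log2(CPM + 1)) was -0.83 in NoTumor-CD40, -0.14 in Tumor-NoCD40 and 0.48 in Tumor-CD40, and their summed level was 793.1, 1535 and 1693 CPM in the 091418 libraries and 1383, 1786 and 1196 CPM in the 091318 libraries. For 22 immediate early and heat shock genes the medians were -0.91, -0.32 and 0.53. No gene of either list passed in the edgeR fit, and the difference between pairs was not tested.

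Plasma cell markers summed to 71.15, 379.8 and 497.1 CPM in the 091418 libraries, 106.7, 144.4 and 318.2 CPM in the 091318 libraries and 126.7, 167.1 and 1169 CPM in the 091218 libraries, in the order NoTumor-CD40, Tumor-NoCD40, Tumor-CD40.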
